A study of Mus musculus with 8 samples.

Results

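The genes examined here encode the laminin chains, the subunits of the large glycoprotein trimers that build basement membranes. The members were 10 chain genes, found by gene name on the array: the alpha chains Lama1, Lama2, Lama3, Lama4 and Lama5, the beta chains Lamb1, Lamb2 and Lamb3, and the gamma chains Lamc1 and Lamc3. They were 10 of the 24304 genes with a named spot, and 28 of the 62976 spots of the array carried their sequences. Each gene is given by its brightest spot, chosen by the mean over the 8 arrays.

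Every laminin combines an alpha, a beta and a gamma chain. The alpha chain sets which receptors the trimer binds, chiefly integrins and dystroglycan, and differs most between tissues. Lama1 belongs to the earliest embryonic basement membranes. Lama5 is the main alpha chain under mature epithelia, Lama3 pairs with Lamb3 in the laminin that anchors epithelia through hemidesmosomes, Lama4 lies around vessels, and Lama2 is typical of muscle and peripheral nerve. In the branching lung the basement membrane separates the epithelial buds from the mesenchyme and surrounds the capillary plexus.

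The samples were lungs of C57bl/6J mouse embryos at E12.5, cultured on filters in DMEM with 10% fetal bovine serum, and total RNA of the whole organ was amplified and hybridised in 1 colour. IQ1, a small molecule that binds the phosphatase PP2A and biases β-catenin towards its coactivator CBP, was given at 10 µM. At 9 h there were 3 IQ1 and 3 control arrays, and at 24 h there was 1 array of each, made from pooled lungs. The labels name PBS as the vehicle, whereas the methods dissolved IQ1 in DMSO and let controls receive either one, so an effect of the solvent cannot be told apart from that of IQ1. The labels of the IQ1 samples also speak of FGFR2b inhibition, although no transgene or FGFR2b reagent is given for these lungs. All groups were explants, so culture on filters was shared by IQ1 and control lungs.

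Levels are log2 intensities after quantile normalisation. On every array the median spot lay at 6.29 and the lower quartile of spots at 4.34. The array of 1 control stood apart. Control 9-h replicate 2 correlated with the other arrays over all spots at r between 0.583 and 0.602, against 0.953 to 0.982 among the other 7. Differences of the chains and of the named partners and receptors at 9 h are therefore given with all 6 arrays and again with the 5 that remain without it, and the 24-h pair has no replicate check. Markers of the labelled tissue were present, as Nkx2-1, the transcription factor of lung epithelium, lay at 9.19 to 11.42 and Foxf1, of lung mesenchyme, at 9.66 to 11.33 over the 8 arrays.

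RefSeq promoter windows (GRCm38.p6, 250 bases before to 50 after a start) were matched by symbol for 5 of the 10 chains, in 6 windows. Lama5 is shown because it was the alpha chain with the higher level under IQ1 at both times. Its upstream stretch, chr2:180225905-180226109 on the minus strand, is printed with the letters GGGCGG, the core bound by Sp and KLF factors, in capitals on either strand.
Lama5: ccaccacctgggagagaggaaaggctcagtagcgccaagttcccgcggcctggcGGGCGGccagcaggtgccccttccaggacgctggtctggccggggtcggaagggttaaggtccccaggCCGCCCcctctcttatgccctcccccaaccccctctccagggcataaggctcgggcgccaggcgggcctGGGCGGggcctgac
This stretch of 205 bases held 3 matches and was 71.7% G and C. The full 300-base window of Lama5 was 72.7% G and C, against a median of 52.7% over all 32851 promoter windows. GGGCGG was also found in the windows of Lama2 and Lamb1, and 35.7% of all windows hold it on either strand. The TCF/LEF letters CTTTGAT or CTTTGTT, on either strand, were in none of the 6 laminin windows and in 9.3% of all windows. TATAAA was likewise in none of the 6 and in 13.6% of all. These are matches of letters and carry no reading on the factors.

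No laminin chain passed the test at 9 h, and the chains with the clearest differences were 3 alpha chains. Without control replicate 2, Lama4 was at 50.9% and Lama3 at 55.4% of the control level, while Lama5 was at 202.8%. At 24 h each kept its direction, with Lama3 at 14.4%, Lama4 at 57.0% and Lama5 at 161.8% of control. In limma's moderated test with Benjamini-Hochberg adjustment over 24304 genes, 0 of 10 chains passed an adjusted p of 0.05 in either fit. Among all genes 0 (0%) passed with 6 arrays, where 490 had an unadjusted p under 0.05, and 3 (0.0123%) passed with 5. Other settings called more genes, 0.959% with array weights, 0.572% with a trended robust prior and 0.255% with dim genes left out, the last 2 on 5 arrays, and 0 chains passed in each. At an unadjusted p under 0.05, which 2.02% of all genes reached with 6 arrays and 8.38% with 5, the laminin count was 0 with 6 arrays and 3 with 5, namely Lama3, Lama4 and Lama5. With the mean of all spots of a gene on 5 arrays it was 5, with Lama2 and Lamb3 added, where 2100 of the 24304 genes reached that threshold. The means of Lama2 and Lamb3 include spots that lay under the lower quartile in control replicates 1 and 3.

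**Figure D1:**
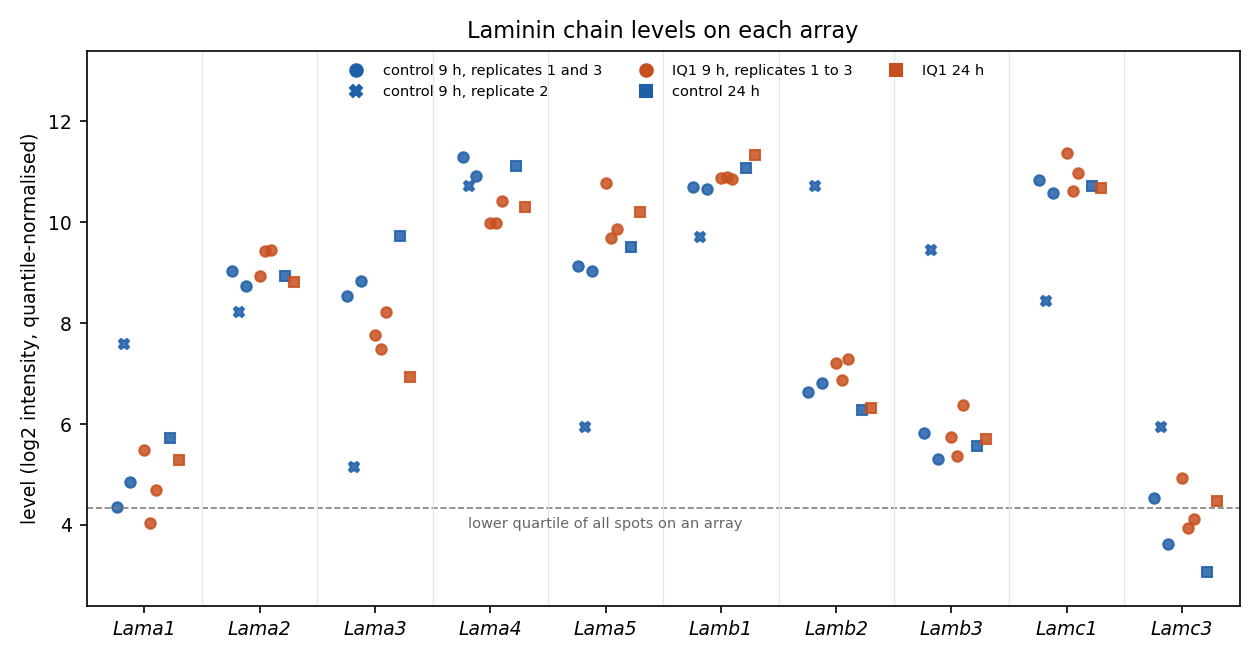
Level of the brightest spot of each laminin chain on each of the 8 arrays, as log2 intensity after quantile normalisation; circles are 9-h arrays, the cross is control 9-h replicate 2, squares are the single 24-h arrays, controls are blue and IQ1 orange, and the dashed line is the lower quartile of spots at 4.34. Lama4 is lower and Lama5 higher on all IQ1 arrays than on the controls of the same time, and the cross lies far from the other controls for most chains.

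Among the epithelial alpha chains, Lama3 showed the lowest 24-h ratio of the family. Lama3 is the alpha chain of the hemidesmosomal laminin. At 9 h its control arrays read 8.53, 5.14 and 8.83 and its IQ1 arrays 7.77, 7.50 and 8.22. The IQ1 arrays lay below control replicates 1 and 3 but above replicate 2, so the direction at 9 h turned with that array. With 6 arrays IQ1 minus control was 0.33 (SE 1.02, limma adjusted p = 0.884). With 5 arrays it was -0.85 (SE 0.29, 95% interval -1.55 to -0.15, limma adjusted p = 0.517). At 24 h the level was 9.73 in control and 6.93 in IQ1 lungs, a difference of -2.79, and 37 of the 24304 genes had a difference that low or lower. The order of the group levels was control at 24 h, control at 9 h without replicate 2, IQ1 at 9 h and IQ1 at 24 h. The control at 24 h was 1.05 above the 9-h controls and the IQ1 lung at 24 h was 0.90 below the 9-h IQ1 mean, each resting on 1 array.

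The array carried a second spot for Lama3, and there the 9-h groups were apart with every control included. Its controls read 7.01, 7.68 and 6.87 and its IQ1 arrays 5.14, 6.00 and 6.22. The difference was -1.40 with 3 controls and -1.15 with 2. At 24 h this spot read 7.35 in control and 3.87 in IQ1 lungs, a difference of -3.48, and the IQ1 value lay under the lower quartile of the array. Both spots were thus lower with IQ1 at 24 h by more than 2-fold, while at 9 h with 6 arrays they differed in sign.

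Lama5, the alpha chain under most epithelia and mesothelia, read 9.13, 5.95 and 9.04 in the 9-h controls and 10.77, 9.68 and 9.86 with IQ1. Every IQ1 array was above every control array, also above replicates 1 and 3 alone. The difference was 2.06 with 6 arrays (SE 0.94, 95% interval -0.22 to 4.35, limma adjusted p = 0.73) and 1.02 with 5 (SE 0.37, 95% interval 0.13 to 1.91, limma adjusted p = 0.547). At 24 h Lama5 read 9.51 in control and 10.20 with IQ1, a difference of 0.69. It had a single spot. Its order of group means was IQ1 at 24 h, IQ1 at 9 h, control at 24 h and control at 9 h, and the first 2 differed by less than the 9-h IQ1 spread of 0.58 (SD, n = 3).

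Markers of epithelium and mesothelium are set beside Lama3 and Lama5. The mean level of 12 epithelial markers was 9.46, 8.74 and 9.33 in the 9-h controls, 9.27, 9.41 and 10.04 with IQ1, and 9.24 against 9.63 at 24 h. The mean level of the 8 measured mesothelial markers, out of 9 listed, was 8.13, 6.39 and 7.92 in controls, 9.76, 8.64 and 8.52 with IQ1, and 7.69 against 9.14 at 24 h. Epithelial levels overlapped between the 9-h groups, whereas all IQ1 arrays were above all controls for mesothelium. IQ1 replicate 1 was highest both for the mesothelial markers and for Lama5. Of the mesothelial markers 7 were higher and 1 lower with IQ1 in the 5-array fit, none passed the adjusted test, and their part in the Lama5 difference was not tested. All 12 epithelial and 7 of the 8 mesothelial markers lay above the lower quartile of the array in the mean of control replicates 1 and 3 at 9 h.

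Lamb3, the beta chain that pairs with Lama3, gave overlapping groups at its brightest spot. The 9-h controls read 5.83, 9.46 and 5.31 and the IQ1 arrays 5.74, 5.37 and 6.37. With 6 arrays the difference was -1.04 (SE 1.12, limma adjusted p = 0.73), and with 5 it was 0.25 (SE 0.36, 95% interval -0.62 to 1.13, limma adjusted p = 0.918). At 24 h Lamb3 read 5.57 in control and 5.70 with IQ1. Its second, dimmer spot gave 4.71, 4.00 and 3.52 in controls against 5.61, 5.30 and 5.48 with IQ1, with no overlap, and 4.23 against 4.63 at 24 h. Without control replicate 2 all 3 Lamb3 spots were higher with IQ1, by 0.25 to 1.35, and their mean by 0.71 (SE 0.26, limma adjusted p = 0.547). Control replicates 2 and 3 of the second spot lay under the lower quartile. The dimmest spot lay under it in control replicates 1 and 3, at 2.85 and 3.48. The size of the differences at these spots, and of the mean, is therefore uncertain.

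**Figure D2:**
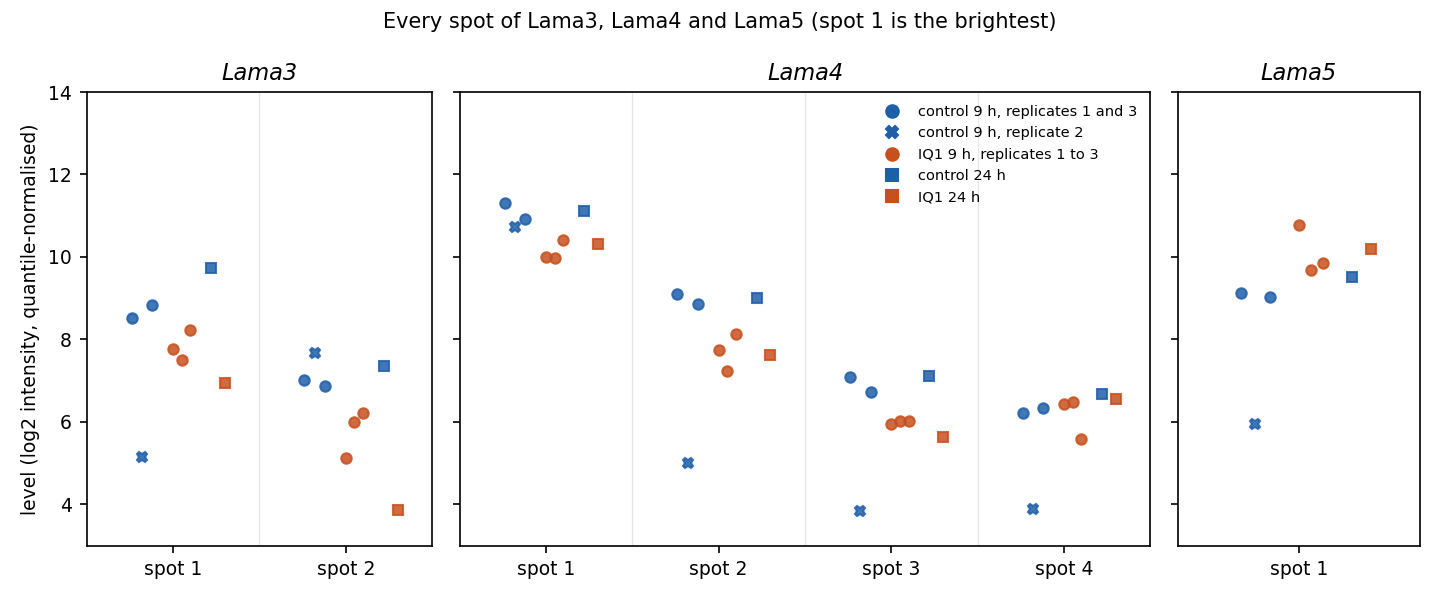
Level of every spot of Lama3, Lama4 and Lama5 on the 8 arrays as log2 intensity, with spot 1 the brightest. Circles are 9-h arrays, the cross is control 9-h replicate 2, squares are 24-h arrays, and controls are blue and IQ1 orange. The IQ1 points of both Lama3 spots and of 3 of the 4 Lama4 spots lie below control replicates 1 and 3, and the Lama5 spot lies above them.

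Lama4, the alpha chain of vessel walls, was lower with IQ1 on every array. The 9-h controls read 11.30, 10.72 and 10.91 and the IQ1 arrays 9.99, 9.98 and 10.42. No IQ1 array reached any control array. The difference was -0.84 with 6 arrays (SE 0.37, 95% interval -1.75 to 0.06, limma adjusted p = 0.73) and -0.97 with 5 (SE 0.26, 95% interval -1.61 to -0.34, limma adjusted p = 0.419). At 24 h it read 11.12 in control and 10.30 with IQ1, a difference of -0.81. The control level at 24 h was 0.01 above that at 9 h, so the control values of Lama4 were nearly the same at the 2 times. All 4 Lama4 spots were lower with IQ1 in the 5-array comparison, with differences from -1.28 to -0.10, and all 4 at 24 h, with differences from -1.47 to -0.11. With control replicate 2 included, the 3 dimmer spots had differences of 0.04, 0.11 and 0.70, since that array read 5.00, 3.83 and 3.88 there against 6.21 to 9.11 in the other 9-h controls.

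Endothelial markers were lower beside Lama4. All 15 markers were lower with IQ1 in the 5-array fit and at 24 h, with a median difference of -1.82 and -2.13. Their mean level was 7.52, 7.25 and 7.45 in the 9-h controls, 5.87, 5.49 and 5.78 with IQ1, and 7.47 against 5.59 at 24 h. The mean of control replicate 2 hides single markers that lay apart in both directions. Kdr read 3.71 there against 7.96 and 7.98 in replicates 1 and 3, and Sox18 read 12.45 against 6.44 and 6.20. Cdh5, the adhesion molecule of endothelial junctions, read 10.04, 8.07 and 9.58 in controls and 7.08, 6.75 and 7.65 with IQ1. At an unadjusted p under 0.05, 12 of the 15 were lower with 5 arrays (4.14% of all genes) and 9 with 6 (0.889%), and none passed the adjusted test. At 24 h 11 of the 15 were lower by more than 2-fold, against 4.97% of all genes. All 15 lay above the lower quartile in the mean of control replicates 1 and 3 at 9 h. Under IQ1 some values lay below it. Sox18 read 3.345 and 3.599 in replicates 2 and 3 at 9 h and 4.203 at 24 h. Esam read 4.244 in replicate 2 at 9 h and 3.387 at 24 h, and Erg 4.329 in replicate 1 at 9 h. The size of the differences of these genes is therefore uncertain. Their part in the Lama4 difference was not tested, and in RNA of whole lungs fewer cells of a type cannot be told apart from less RNA per cell.

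Lama1, the early alpha chain, lay in the lower part of the scale. The 9-h controls read 4.36, 7.60 and 4.85 and the IQ1 arrays 5.49, 4.04 and 4.69. At this brightest spot the groups overlapped, with or without control replicate 2. The difference was -0.86 with 6 arrays (SE 0.93, limma adjusted p = 0.73) and 0.14 with 5 (SE 0.45, 95% interval -0.95 to 1.23, limma adjusted p = 0.974). At 24 h Lama1 read 5.73 in control and 5.29 with IQ1. A second spot gave 5.35, 3.13 and 5.29 in controls and 4.57, 3.40 and 4.67 with IQ1, and 5.21 against 4.10 at 24 h. There the IQ1 arrays lay below control replicates 1 and 3 but above replicate 2. Its difference was -0.37 with 6 arrays, -1.10 with 5 and -1.11 at 24 h. The spots thus differed in direction at 9 h in the 5-array comparison, and both were lower with IQ1 at 24 h.

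Whether Lama4 answered IQ1 differently from the epithelial and early chains was tested on the within-array value of Lama4 minus the other chain, for 4 pairs, with a two-sided exact permutation test adjusted over the 4. Against Lama5, the values were 2.17, 4.77 and 1.88 in controls and -0.77, 0.30 and 0.56 with IQ1, which did not overlap. The response of Lama4 minus that of Lama5 was -2.91 log2 units (exact permutation p = 0.1, adjusted p = 0.4), and 0.1 is the smallest p that 3 against 3 arrays allow, so this design could not reach 0.05. Without control replicate 2 the difference was -1.99 (exact permutation p = 0.2, the smallest possible, adjusted p = 0.267), and at 24 h it was -1.51. Against Lama3 the difference was -1.17 with 6 arrays (exact permutation p = 0.4, adjusted p = 0.8), -0.12 with 5 (exact permutation p = 0.8) and 1.98 at 24 h. Lama4 and Lama3 thus had similar IQ1 minus control differences at 9 h without replicate 2, and at 24 h Lama3 had the lower ratio. Against Lama1 and Lamb3 the differences were 0.02 and 0.20 with 6 arrays (exact permutation p = 1 for each). With 5 arrays they were -1.11 and -1.23 (exact permutation p = 0.2, adjusted p = 0.267 for each), and at 24 h -0.37 and -0.95. The sign against both chains turned without control replicate 2, and against Lama1 it also turned without IQ1 replicate 2 (-0.26) or replicate 3 (-0.15).

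The balance of the epithelial alpha chains was set out in the same way, a pair chosen after its values were seen and so given without a test. Lama5 minus Lama3 was 0.60, 0.81 and 0.21 in the 9-h controls and 3.00, 2.18 and 1.64 with IQ1. Control replicate 2, low at the brightest spot of both chains, lay with the other controls here. At the second Lama3 spot it read 7.68, the highest of the 9-h controls. The agreement of that array thus holds for the brightest Lama3 spot only. At 24 h the value was -0.22 in control and 3.27 with IQ1. The IQ1 lungs thus had a higher Lama5 relative to Lama3 by 1.74 with 6 arrays, 1.87 with 5 and 3.49 at 24 h.

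**Figure D3:**
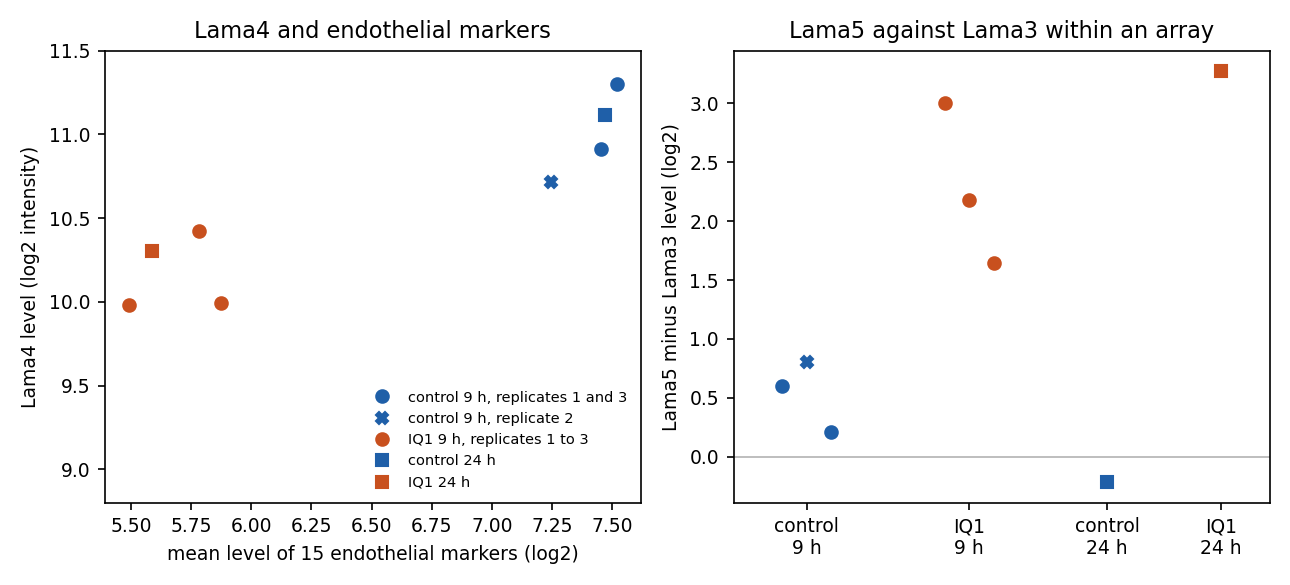
Left, Lama4 level against the mean level of 15 endothelial markers on each array, both as log2 intensity; right, Lama5 minus Lama3 within each array, in log2 units, by group. All 4 IQ1 arrays lie at marker means of 5.49 to 5.87 and Lama4 levels of 9.98 to 10.42, below every control on both axes. The marker mean of control 9-h replicate 2, the cross, averages single markers far above and far below those of the other 9-h controls. On the right the IQ1 arrays run from 1.64 to 3.27, above controls at -0.22 to 0.81. The axis of Lama4 levels does not start at 0.

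Lama2, the alpha chain of muscle and Schwann cells, had overlapping groups at its brightest spot. The 9-h controls read 9.04, 8.21 and 8.74 and the IQ1 arrays 8.94, 9.43 and 9.45, with IQ1 replicate 1 inside the control range of 9 h. The difference was 0.61 with 6 arrays (SE 0.40, limma adjusted p = 0.73), 0.38 with 5 (SE 0.26, 95% interval -0.27 to 1.02, limma adjusted p = 0.778) and -0.11 at 24 h. Of its 5 spots all were higher with IQ1 in the 5-array comparison, by 0.01 to 0.98, while with replicate 2 included 2 of them gave -1.79 and -0.18. For 2 other spots the IQ1 arrays lay above all 3 controls, the brighter reading 8.03, 6.60 and 8.03 in controls and 8.83, 9.00 and 9.20 with IQ1, a difference of 1.46 with 6 arrays. The mean of all Lama2 spots differed by 0.57 with 5 arrays (SE 0.20, 95% interval 0.08 to 1.06, limma adjusted p = 0.519) and by 0.20 with 6. At 24 h 3 were higher and 2 lower. The 8 smooth muscle markers, of which all were higher with IQ1 in the 5-array fit, had a mean level of 9.53, 9.66 and 9.28 in controls, 10.12, 10.05 and 10.31 with IQ1, and 9.51 against 10.95 at 24 h. Their part in the Lama2 values was not tested. The mean of 9 mesenchymal markers was 10.84, 9.45 and 10.76 in controls, 10.99, 10.46 and 10.81 with IQ1, and 10.36 against 10.32 at 24 h.

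The chains that most laminins share had small differences without control replicate 2. Lamb1, the commonest beta chain, read 10.70, 9.72 and 10.66 in controls and 10.88, 10.89 and 10.86 with IQ1. The IQ1 arrays lay above all controls by a narrow margin, and the difference was 0.52 with 6 arrays (SE 0.42, limma adjusted p = 0.73), 0.20 with 5 (SE 0.20, limma adjusted p = 0.861) and 0.25 at 24 h. All 5 Lamb1 spots were higher with IQ1 in the 5-array comparison, by 0.05 to 0.20, and at 24 h, by 0.05 to 0.25, and the dimmest gave -0.84 with replicate 2 included. Lamc1, the gamma chain of nearly all laminins, read 10.84, 8.43 and 10.59 in controls and 11.37, 10.62 and 10.97 with IQ1, and the groups overlapped. Its difference was 1.04 with 6 arrays (SE 0.72, limma adjusted p = 0.73), 0.28 with 5 (SE 0.29, 95% interval -0.43 to 0.98, limma adjusted p = 0.865) and -0.05 at 24 h. Of its 4 spots 2 were higher and 2 lower in the 5-array comparison, from -0.20 to 0.28, their mean differed by 0.056, and all 4 were lower at 24 h.

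Lamb2, the beta chain of neuromuscular junctions and the kidney filter, read 6.64, 10.72 and 6.82 in controls and 7.22, 6.88 and 7.30 with IQ1. Control replicate 2 was the highest array and the other controls the lowest. The difference was -0.93 with 6 arrays (SE 1.12, limma adjusted p = 0.737), 0.40 with 5 (SE 0.24, 95% interval -0.18 to 0.98, limma adjusted p = 0.728) and 0.04 at 24 h. Lamc3, a gamma chain of skin, brain and nerve, lay around the lower quartile of the array, at 4.53, 5.94 and 3.63 in controls and 4.93, 3.94 and 4.11 with IQ1. The groups overlapped, with a difference of -0.37 with 6 arrays (SE 0.68, limma adjusted p = 0.804) and 0.25 with 5 (limma adjusted p = 0.932). At 24 h it read 3.06 in control and 4.47 with IQ1, a difference of 1.41 that began from a level below the lower quartile.

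Counted over the family, 2 chains were higher (Lama5 and Lamb1) and 1 lower (Lama4) on all IQ1 arrays than on all 3 controls, where 8.33% of all genes were higher and 5.25% lower in this way. Against control replicates 1 and 3 alone, 3 were higher (Lama5, Lamb1 and Lamb2) and 2 lower (Lama3 and Lama4), beside 13.1% of all genes in each direction and 26.2% in either. At 24 h, 1 chain was higher by more than 2-fold (Lamc3) and 1 lower (Lama3), against 5.64% and 4.97% of all genes, together 10.6%. In the 5-array fit 8 chains were higher with IQ1 and 2 lower, where 51.6% of all genes were higher, and 7 of the 10 had the same sign at 24 h, as 58.8% of all genes did. The median laminin difference was 0.25 with 5 arrays against 0.01 over all genes, and -0.02 with 6 arrays against 0.16.

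**Figure D4:**
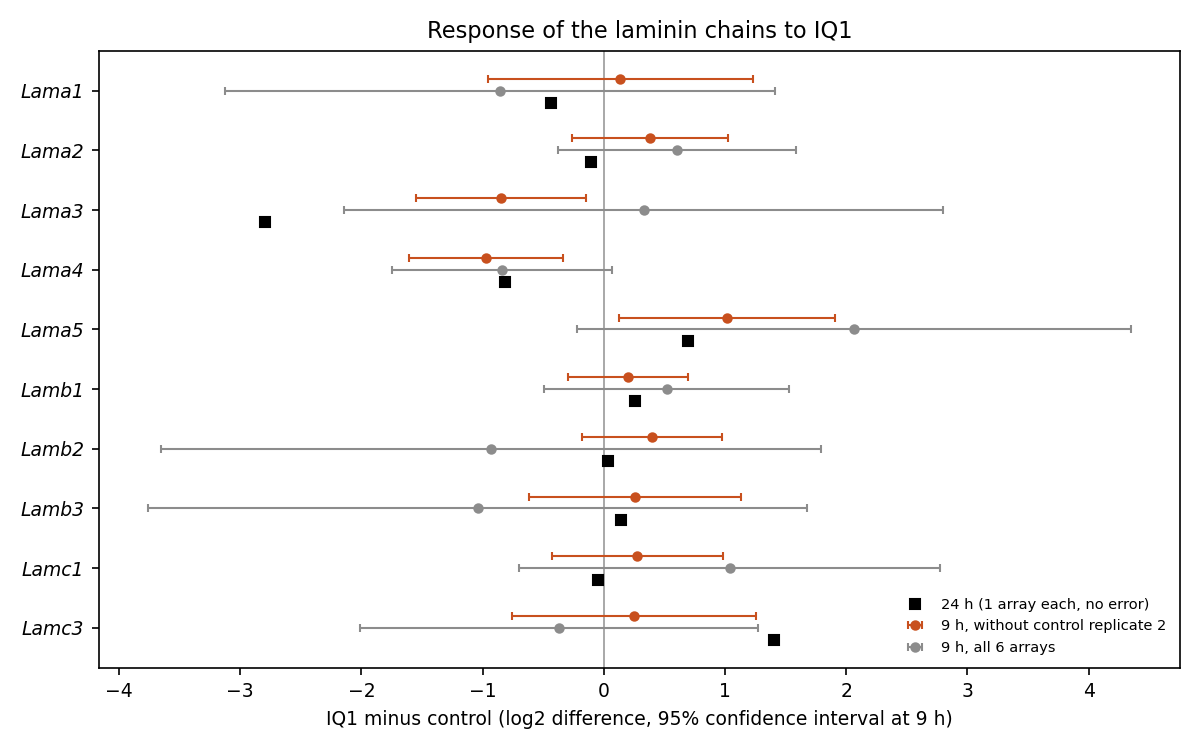
IQ1 minus control for each laminin chain in log2 units, from the 6-array and 5-array limma fits at 9 h with 95% intervals and from the single 24-h pair without one. The 5-array intervals of Lama3, Lama4 and Lama5 do not reach 0, and no adjusted p is under 0.05.

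The other basement membrane genes had differences in both directions. Of 23 partners, 14 were higher and 9 lower with IQ1 in the 5-array fit, with 4 higher and 1 lower at an unadjusted p under 0.05 (4.24% and 4.14% of all genes) and none past the adjusted test in either fit. With 6 arrays 13 were higher and 10 lower. The lowest was Col15a1, a collagen of vascular and muscle basement membranes, at 7.04, 7.22 and 6.65 in controls and 4.50, 3.99 and 3.84 with IQ1. It differed by -2.86 with 6 arrays, -2.74 with 5 (SE 0.29, limma adjusted p = 0.1) and -1.69 at 24 h, and the 9-h groups were apart with all 3 controls. IQ1 replicates 2 and 3 and the 24-h IQ1 array (3.65) lay under the lower quartile, so the size of the Col15a1 difference is uncertain. Col4a1, a chain of the type IV collagen network, differed by 0.25 with 6 arrays, -0.73 with 5 and -0.72 at 24 h, so its sign at 9 h turned with control replicate 2. Frem1, an epithelial basement membrane protein, gave -1.31, -0.73 and -0.62 in the same order, and Col18a1, the endostatin precursor, -1.28, -0.45 and -0.91. Frem2, a partner of Frem1 in the Fraser complex, gave 1.32, 0.91 and 1.28. For the matricellular calcium-binding proteins the values were 0.54, 0.78 and 0.29 for Smoc1 and 0.30, 1.12 and 0.33 for Smoc2. Col4a3, a type IV chain of kidney and lung, turned from -1.47 with 6 arrays to 1.20 with 5, and gave 1.33 at 24 h. Control replicate 2 read 11.48 for Col4a3, while the other controls, at 3.84, 3.07 and, at 24 h, 3.75, lay under the lower quartile.

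Of 13 laminin receptors, 7 were higher and 6 lower in the 5-array fit and 8 and 5 in the 6-array fit. At an unadjusted p under 0.05, 1 was higher and 0 lower with 5 arrays (4.24% and 4.14% of all genes). With 6 arrays 0 were higher and 0 lower (1.13% and 0.889% of all genes). None passed the adjusted test in either fit, and the list's median difference was 0.33 with 6 arrays, 0.05 with 5 and -0.04 at 24 h. Bcam, a receptor for Lama5, differed by 0.75 with 6 arrays, 1.11 with 5 and -0.04 at 24 h, and Cd151, the tetraspanin partner of laminin-binding integrins, by 2.35, 1.10 and 1.29. Itga3, an integrin alpha subunit that binds laminins with Lama3 or Lama5, differed by 1.22, 0.59 and 1.48. Dag1, which encodes dystroglycan, gave -0.11, 0.44 and 0.88, and Sdc1, a syndecan of epithelia, 0.24, -0.57 and -0.23, so the signs of both at 9 h turned with control replicate 2. Itga2, an integrin subunit for collagens and laminins, gave -1.28, -0.84 and -1.56, with 2 of its 3 IQ1 arrays at 9 h and the one at 24 h under the lower quartile. The related subunit Itga1 gave -0.11, -0.45 and -0.09, and Itga6, of the hemidesmosomal integrin, -0.06, -0.24 and -0.16.

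Genes with patterns most like those of 3 alpha chains were sought among 12145 genes by Pearson's r over the 7 arrays other than control 9-h replicate 2. The arrays shared treatment and time, and the genes named are the highest of 12145 over only 7 arrays. These values are therefore a description, and how high they would be without any relation was not tested. Lama4 was most like Adam6a (r = 0.993), Snrk (0.992) and Tmem94 (0.987), which over all 8 arrays gave 0.162, 0.200 and 0.273. Lama3 was most like Masp2 (0.991), Ppp1r8 (0.985) and Creb1 (0.979), with 0.904, 0.925 and 0.875 over 8 arrays. Lama1 was most like Rwdd2b (0.979), Smu1 (0.966) and Calu (0.931), with -0.745, -0.811 and -0.685 over 8 arrays. The likeness for Lama3 thus stayed high with the array that stood apart, and those for Lama4 and Lama1 did not. The 8 arrays include the 7 by which the genes were chosen, so this is not a separate check.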

How the data were processed

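The deposited table holds log2 intensities of 8 1-colour Agilent arrays, and the authors made them by normexp background correction, a log transformation and quantile normalisation between arrays with limma. The scanner's raw intensities were not used here. Spots were named through the platform annotation, updated by accession for 33704, by symbol for 9767 and by synonym for 463 of 43941 named spots, with 7 kept as listed. The other 19035 spots had no gene name here, and 8 spots with missing values were left out. Strand, build and probe positions are not given in the sources used here.

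For each gene the spot with the highest mean over the 8 arrays was kept. IQ1 and control arrays at 9 h were compared by the moderated two-sided test of limma (version 3.58.1, under R 4.3.3), adjusted by Benjamini-Hochberg over 24304 genes at a threshold of 0.05, with all 6 arrays and without control replicate 2. The study used fewer control arrays at 9 h than the table holds and did not name the one it left out. At 24 h a change past 2-fold was counted, with no test. Exact permutation tests used scipy 1.17.1. The limma fit was tested on simulated data in which no array stood apart as control replicate 2 did. The series design calls the replicates biological without saying which lungs each came from, so p-values measure the spread between these samples, and the number of arrays limits their precision.

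Chains, gene lists and tests were chosen with earlier results of these data known. Named were all 10 chains, the 4 basement membrane partners and 4 receptors with the smallest p in each direction in the 5-array fit, and the 3 genes most like Lama1, Lama3 and Lama4. Markers named beside them were chosen as the defining ones of their cell type. Alternatives were array weights, dim genes left out, a trended robust prior, the mean of all spots, a replicate block, and each array left out.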

Additional observations from a re-analysis of the deposited data

Results flagged for a closer look

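The differences of 4 chains at 24 h stood on the other side from the single arrays at 9 h, without a test of that difference. Lama2 was -0.11 at 24 h while every IQ1 array at 9 h was above the mean of the 3 controls. Lamc1 was -0.05 at 24 h, again with all 3 IQ1 arrays at 9 h above the control mean. Without control replicate 2 that mean was 10.71, and IQ1 replicate 2, at 10.62, lay below it. Lamb2 was 0.04 and Lamb3 0.14 at 24 h, while all 3 IQ1 arrays at 9 h were below the control mean. For Lamb2 and Lamb3 that mean was set by control replicate 2, without which their differences at 9 h were 0.40 and 0.25 and had the sign of 24 h. The 24-h values rest on 1 array per condition.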

How the results depend on the processing

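No laminin chain passed an adjusted p of 0.05 in any alternative fitted. The limma adjusted p ranged over the alternatives from 0.0681 to 0.999 for Lama4, from 0.277 to 0.977 for Lama3 and from 0.176 to 0.889 for Lama5. The number of genes called overall did move, from 0 with 6 arrays and 3 with 5 to 233 with array weights, 139 with a trended robust prior on 5 arrays, 9 with the mean of all spots on 5 arrays and 31 of 12152 with dim genes left out on 5 arrays. That filter left out Lama1, Lamb3 and Lamc3. Array weights, which gave control replicate 2 a weight of 0.0319 against 0.759 to 4.16 for the others, turned 4 differences of the 6-array fit, to 0.10 for Lama1, -0.63 for Lama3, 0.46 for Lamb2 and 0.37 for Lamb3. The mean of all spots turned Lama3 to -0.54, Lama4 to 0.0026 and Lamb3 to 0.036 with 6 arrays, Lama1 to -0.48 with 5, and the contrasts of Lama4 with Lama3 to 0.54 and with Lamb3 to -0.034. With 5 arrays it also moved Lama2 from 0.38 to 0.57, Lamb3 from 0.25 to 0.71 and Lamc1 from 0.28 to 0.056.

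Leaving out each array in turn gave ranges of -1.48 to 0.14 for Lama1, -0.85 to 0.99 for Lama3, -1.64 to 0.40 for Lamb2, -1.82 to 0.25 for Lamb3 and -0.91 to 0.25 for Lamc3, and each of these 5 turned only without control replicate 2. The contrasts of Lama4 ranged from -1.11 to 0.80 with Lama1, -1.87 to -0.12 with Lama3, -3.44 to -1.99 with Lama5 and -1.23 to 0.94 with Lamb3. At 24 h, 2 chains passed a 2-fold change, against 10.6% of all genes. At 1.5-fold 4 chains passed, and the share of all genes was not counted there, so this count has no background to be read against.

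Same-numbered IQ1 and control arrays did not deviate together, with correlations of 0.004, -0.004 and 0.015. The control deviations were taken from a mean that included replicate 2, the array that stood apart. This check therefore cannot exclude that the numbers pair samples. With the replicate number as a block 0 chains and 0 of 24304 genes passed, and 315 genes had an unadjusted p under 0.05 against 490 without the block. With 5 arrays the block took the count of genes from 3 to 0, again with 0 chains. The number of arrays, and for Lama1 and Lamc3 a level near the lower quartile, limit what can be detected.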

Other observations

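Markers of other cells that the whole organ could hold were read beside the laminin chains. In the 5-array fit the median difference was 0.67 for 5 macrophage markers, 0.31 for 5 cardiac muscle markers, 0.05 for 4 of 5 erythroid markers and 0.22 for the 2 of 5 Schwann and neural crest markers that were measured. With 6 arrays they were 1.26, 0.32, 0.69 and 0.69, so those of the macrophage, erythroid and Schwann lists moved by over 1.5 times with control replicate 2. At 24 h these medians were 0.94, 0.55, 0.0017 and 0.093. None of these markers passed the adjusted limma test at 9 h in either fit. Of the control arrays, replicate 2 had the lowest mean level for the erythroid, macrophage and cardiac lists alike, at 8.31, 7.85 and 6.29 against 10.03 and 10.15, 8.94 and 8.55, and 7.37 and 7.38 in replicates 1 and 3.

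In the control lungs between 9 h, taken without replicate 2, and 24 h, Lama1 was higher by 1.13, Lama3 by 1.05, Lama5 by 0.43 and Lamb1 by 0.40. Lamb2 and Lamc3 were lower there, with differences of -0.45 and -1.01. In IQ1 lungs the same change was 0.55 for Lama1, -0.90 for Lama3, 0.10 for Lama5 and 0.46 for Lamb1. For Lamb2 it was -0.82, so this chain was lower at 24 h in both conditions, and for Lamc3 it was 0.15. Each value rests on 1 array at 24 h and was not tested.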
